A study of Mus musculus with 9 samples.

Results

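The solute carrier (SLC) genes are the membrane transporter genes whose symbols start with Slc and a digit. They were taken from the MG-U74Av2 expression arrays as every probe set, that is every group of array probes for one transcript, with a single such symbol, and the brightest probe set stood for each gene. Slc2a1, Slc34a2, Slc39a8, Slc25a20, Slc4a1 and Slc11a2 were not included. This gave 145 genes of the 8251 genes with a named probe set, in 26 genes for amino acid transport, 32 for ions, 10 of the SLC35 family of nucleotide sugar transporters, 19 of the SLC25 family of mitochondrial carriers, 55 for other substrates and 3 genes that are named after a transporter but do not encode one. All glands were the number 4 (inguinal) mammary fat pads of wild type C57BL/6J females. There were 3 arrays at puberty (6 weeks of age, virgin), 2 at day 14 of pregnancy, 2 at lactation (day 10 postpartum) and 2 at involution (4 days after weaning), 1 female to an array by the counts in the study's methods. Values are scaled signals, the deposited intensities multiplied so that the arrays have equal medians.

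SLC proteins carry small molecules across cell membranes, by facilitated diffusion, by exchange or by coupling to the gradients of sodium or protons. In the mammary gland the alveolar epithelial cell draws amino acids, sugars, fatty acids and minerals from the blood through such carriers. SLC35 proteins bring activated sugars and nucleotides into the Golgi and the endoplasmic reticulum, where lactose, glycoproteins and glycolipids are made, and SLC25 proteins exchange metabolites across the inner mitochondrial membrane.

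For orientation, the 250 bases upstream of the annotated start are shown for the gene with an entry in the RefSeq promoter table (GRCm38.p6) that rose most at lactation among the amino acid, ion, nucleotide sugar and mitochondrial genes (Slc1a4, Slc30a4, Slc35b1 and Slc25a1), and for Slc7a7 and Slc50a1, which rose by over 2 on the log2 scale and held a searched motif. Slc7a5 and Slc39a6 rose more within their classes and are named only. Slc7a5 has no entry, and genes on the chromosome of Slc39a6 were not shown. Capitals mark a motif match, lower case is the rest, and each sequence runs 5′ to 3′ on the gene's own strand. They are Slc1a4 (chr11:20332714-20332963, minus strand), Slc7a7 (chr14:54417945-54418194, minus, the first of 5 promoters listed for the gene), Slc30a4 (chr2:122702664-122702913, minus), Slc35b1 (chr11:95384606-95384855, plus), Slc25a1 (chr16:17928220-17928469, minus) and Slc50a1 (chr3:89270571-89270820, minus).
Slc1a4: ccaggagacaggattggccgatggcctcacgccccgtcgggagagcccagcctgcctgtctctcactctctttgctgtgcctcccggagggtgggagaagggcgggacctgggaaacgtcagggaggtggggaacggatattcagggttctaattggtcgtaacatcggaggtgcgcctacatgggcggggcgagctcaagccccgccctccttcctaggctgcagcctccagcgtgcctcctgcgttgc
Slc7a7: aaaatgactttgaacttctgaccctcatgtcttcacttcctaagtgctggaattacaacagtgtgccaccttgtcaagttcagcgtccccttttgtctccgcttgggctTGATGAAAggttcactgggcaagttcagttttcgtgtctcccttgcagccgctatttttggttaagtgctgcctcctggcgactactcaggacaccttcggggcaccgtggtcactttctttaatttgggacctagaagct
Slc30a4: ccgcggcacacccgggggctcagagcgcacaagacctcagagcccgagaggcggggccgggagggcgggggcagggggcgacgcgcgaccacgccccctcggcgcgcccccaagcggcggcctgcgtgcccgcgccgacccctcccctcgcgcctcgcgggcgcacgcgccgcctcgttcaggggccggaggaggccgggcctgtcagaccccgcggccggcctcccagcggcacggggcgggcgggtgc
Slc35b1: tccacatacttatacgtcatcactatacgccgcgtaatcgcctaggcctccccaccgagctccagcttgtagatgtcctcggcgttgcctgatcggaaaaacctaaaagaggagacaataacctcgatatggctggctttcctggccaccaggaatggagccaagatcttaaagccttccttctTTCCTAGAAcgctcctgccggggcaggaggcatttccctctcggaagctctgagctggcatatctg
Slc25a1: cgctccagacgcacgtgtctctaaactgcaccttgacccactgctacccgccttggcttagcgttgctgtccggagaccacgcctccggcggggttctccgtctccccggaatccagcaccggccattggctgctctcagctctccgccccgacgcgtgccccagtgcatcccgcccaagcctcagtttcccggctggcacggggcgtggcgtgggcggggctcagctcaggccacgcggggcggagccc
Slc50a1: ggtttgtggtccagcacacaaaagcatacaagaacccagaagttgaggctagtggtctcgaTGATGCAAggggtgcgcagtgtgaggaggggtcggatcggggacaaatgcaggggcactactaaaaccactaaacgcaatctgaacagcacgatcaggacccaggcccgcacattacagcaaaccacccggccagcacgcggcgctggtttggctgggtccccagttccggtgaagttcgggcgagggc

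The motifs searched, on both strands, were TTCNNNGAA (the site of STAT5, the transcription factor downstream of prolactin), TGATGNAA (ATF4, the factor of the amino acid response), TCACNCCAC (SREBP, the factor of lipid synthesis) and TGACGTGG (XBP1, the factor of the unfolded protein response). Of these genes, Slc35b1 held the STAT5 motif, with its first base at position -66 from the start, and Slc7a7 and Slc50a1 held the ATF4 motif, at -141 and -189. Promoters were listed for 120 of the 145 SLC genes. Among the 60 promoters of 48 SLC genes that rose at lactation, the STAT5 motif occurred in 3.33%, the ATF4 motif in 6.67% (4 promoters of 3 genes, Slc7a7, Slc50a1 and Slc23a3), the SREBP motif in 1.67% (Slc2a8) and the XBP1 motif in none. In the 32851 promoters of the whole table these shares were 7.02%, 3.45%, 1.05% and 0.56%. A match is a run of letters and no evidence of binding.

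Signals were floored at 20, and 119 of the 145 genes had a mean above 20 in at least 1 stage and were tested. The other 26 genes had stage means of at most 18.7. Calls are Benjamini-Hochberg adjusted p-values under 0.05 from limma over all 9783 tested probe sets. In the F test across the 4 stages 68 of the 119 SLC genes (57.1%) passed, where 51.6% of all tested probe sets did. When each stage was set against the mean of the remaining stages, 57 SLC genes (47.9%) rose at lactation and 16 (13.4%) fell, where 27.5% of all tested probe sets rose and 24.3% fell. Taking the brightest probe set of each of the 7090 tested genes, as was done for the family, 52.9% passed the F test, 26.2% rose and 26.5% fell at lactation. The median change at lactation was 0.42 (log2) over the SLC genes and 0.05 over all tested probe sets.

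Of the 68 genes past the F test, 48 (70.6%) had their highest mean at lactation, 11 at puberty, 6 at involution and 3 at pregnancy. Over all probe sets past that test 44.1% were highest at lactation. The lowest mean fell at puberty in 27 of the 68 genes, at lactation in 15 and at pregnancy and involution in 13 each. Of the 119 tested genes 16 were above 20 in 1 stage alone, and 5 of these are among the 68. Of the genes that rose at lactation, Slc10a1, Slc16a1, Slc26a2, Slc27a3, Slc30a1, Slc51a and Slc5a11 were tested through their lactation mean alone. In Slc10a1, Slc26a2, Slc27a3, Slc30a1 and Slc5a11 all other arrays were held at the floor. Their spread outside lactation was therefore not measured, and their adjusted p-values take no account of it.

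**Figure D1:**
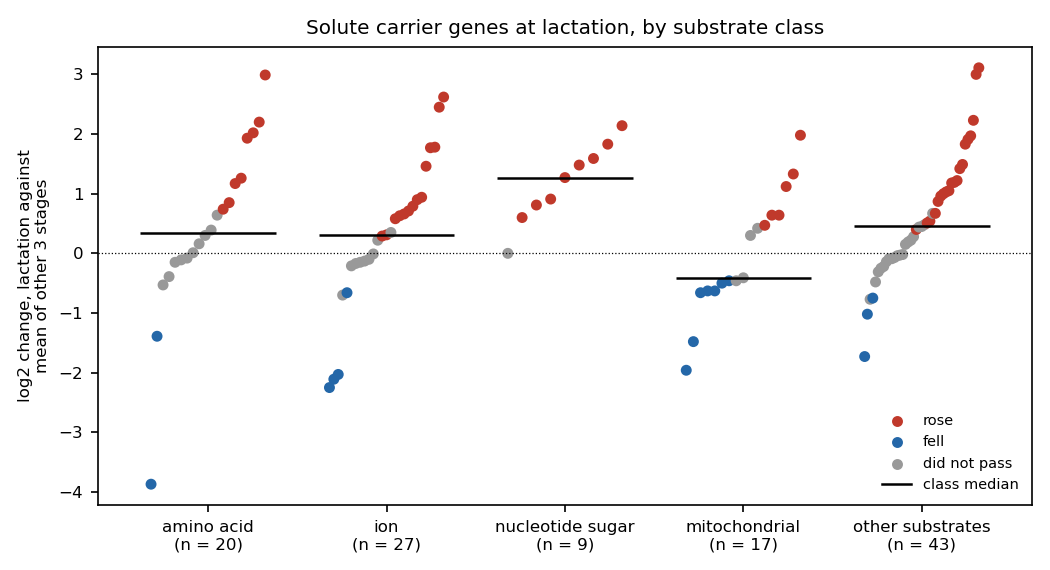
Log2 difference of lactation from the mean of the other 3 stages (y axis) for the tested SLC genes of 5 substrate classes (x axis, ordered by value within a class), where red points rose, blue points fell, grey points did not pass the test and black bars are class medians. The nucleotide sugar class, which holds the SLC35 genes whatever their substrate, has a median of 1.27 and no gene that fell. The mitochondrial class has a median of -0.41 with points on both sides of 0.

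The arrays measured RNA of whole glands, so that fewer cells of a type and less RNA per cell cannot be told apart. Secretory alveolar markers (9 of 9 measured) summed to 3022 to 5027 at puberty, 33462 to 34465 at pregnancy, 149387 to 190876 at lactation and 22944 to 24930 at involution. Luminal epithelial markers (10 of 10) summed to 2080 to 3572, 6071 to 6936, 8683 to 9796 and 3863 to 5765 at the same stages, and basal epithelial markers (7 of 8, Krt15 not above 20) to 761 to 934, 3060 to 3335, 2114 to 2184 and 1504 to 1665. All 9 secretory markers rose at lactation together with the 57 SLC genes, while 4 of the 10 luminal markers rose and 2 fell. The part of the cell mixture in the rises of the SLC genes was not tested. T cell markers (7 of 8 measured) summed to 872 to 1026, 250 to 330, 104 to 111 and 538 to 729, B cell and plasma cell markers (7 of 8) to 3555 to 3754, 1727 to 2090, 788 to 1768 and 5569 to 5854, endothelial markers (8 of 8) to 1501 to 1680, 1377 to 1406, 754 to 757 and 1663 to 1730, and erythroid markers (4 of 7, Hemgn not above 20) to 2029 to 3674, 8477 to 10477, 1831 to 2278 and 225 to 328.

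Of the 20 tested amino acid transporter genes 8 (40%) rose at lactation and 2 (10%) fell, beside 27.5% and 24.3% of all tested probe sets. The largest rise was that of Slc7a5, which encodes LAT1, the light chain of an exchanger for large neutral amino acids such as leucine. Slc7a5 had scaled signals of 192, 137 and 138 at puberty, 356 and 303 at pregnancy, 2120 and 1415 at lactation and 188 and 227 at involution. Every lactation array was above every other array, and the change was 2.99 ± 0.20 (log2, SE; adjusted p = 9.60e-06). Against means that include lactation, Slc7a5 was also called down at puberty (-1.67) and at involution (-1.10). Slc3a2 encodes 4F2hc (CD98), the heavy chain that pairs with LAT1. Its signals were 517, 511 and 476 at puberty, 781 and 687 at pregnancy, 1603 and 1277 at lactation and 1263 and 1479 at involution. The lactation and involution arrays of Slc3a2 overlapped, and the gene rose at both stages, by 0.85 ± 0.13 (SE; adjusted p = 0.000615) and by 0.76 ± 0.13 (adjusted p = 0.00495). At involution, then, the heavy chain gene Slc3a2 was called up. The light chain gene Slc7a5 was called down there only against a mean that includes lactation, and its involution arrays overlapped those of puberty.

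The carriers of small neutral amino acids of the SLC1 family went opposite ways. Slc1a4 encodes ASCT1, an exchanger of alanine, serine and cysteine, and had signals of 58.1, 64.4 and 64.6 at puberty, 138 and 138 at pregnancy, 478 and 501 at lactation and 123 and 159 at involution. Slc1a5 encodes ASCT2, which also exchanges glutamine, and had 792, 873 and 1014 at puberty, 334 and 215 at pregnancy, 14.1 and 68.2 at lactation and 594 and 736 at involution. Both groups of lactation arrays lay apart from the other arrays, above them for Slc1a4 and below them for Slc1a5. Slc1a4 rose by 2.20 ± 0.15 (adjusted p = 1.01e-05) and Slc1a5 fell by 3.87 on the log2 scale (SE 0.388, adjusted p = 8.12e-05). One lactation array of Slc1a5 was below the floor of 20, and the change was -2.99 without that array and -4.76 without the other. Slc1a5 also had the largest rise of the class at puberty, 2.25 ± 0.34 (adjusted p = 0.00213), and at involution, 1.68 ± 0.39 (adjusted p = 0.0199). The involution call did not hold without either involution array or without pregnancy replicate 2 (1.53 to 1.83, adjusted p = 0.0672 to 0.168). Slc1a2, which encodes the glutamate transporter GLT-1, had signals of 27.9, 13.2 and 15.4 at puberty, 50 and 35.9 at pregnancy, 38.2 and 23.3 at lactation and 16.2 and 8.5 at involution. Its pregnancy and lactation arrays overlapped, and it was called up at pregnancy by 0.84 (adjusted p = 0.0499), which did not hold without any single array other than lactation replicate 1 (0.60 to 1.07, adjusted p = 0.0507 to 0.343).

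Of the 6 tested SLC7 genes, which encode carriers of cationic amino acids and the light chains, 3 rose. The group is too small to set against the 27.5% of all tested probe sets that rose. The 3 were Slc7a5 and the following genes. Slc7a7 encodes y+LAT1, a second partner of the 4F2hc heavy chain, and read 92.5, 76.6 and 60.7 at puberty, 79.3 and 80.1 at pregnancy, 349 and 424 at lactation and 117 and 172 at involution. Slc7a2 encodes CAT2, a carrier of arginine and lysine, and read 52.6, 60.1 and 70.3 at puberty, 6.4 and 43 at pregnancy, 164 and 207 at lactation and 57.2 and 70.9 at involution. The lactation arrays of both genes were above all others, with changes of 2.02 ± 0.21 (adjusted p = 0.0001) and 1.93 ± 0.29 (adjusted p = 0.00073). Slc7a1, for the related carrier CAT1, was not tested, its signals being 1.1 to 14.4 on all arrays. Slc7a6, Slc7a8 and Slc7a9 were not called at lactation, with changes of -0.11, -0.08 and 0.39.

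Among sodium-coupled carriers Slc6a9 (GlyT1, a glycine transporter) and Slc38a2 (SNAT2, a carrier of alanine and glutamine) rose, and Slc6a6 (TauT, the taurine transporter) fell. Slc6a9 had 222, 160 and 192 at puberty, 189 and 184 at pregnancy, 443 and 417 at lactation and 153 and 173 at involution, and Slc38a2 had 145, 130 and 147, 198 and 155, 334 and 326, and 140 and 118 at these stages. The lactation arrays were the highest for both, with changes of 1.26 ± 0.14 (adjusted p = 0.000149) and 1.17 ± 0.14 (adjusted p = 0.000235). Slc6a6 was 267, 325 and 375 at puberty, 205 and 179 at pregnancy, 112 and 123 at lactation and 487 and 472 at involution. Its arrays were lowest at lactation and highest at involution, without overlap, with a change of -1.39 (SE 0.145, adjusted p = 9.99e-05) at lactation and 1.31 ± 0.15 (adjusted p = 0.00101) at involution. The dimmer probe set of Slc6a6 changed by 0.54 at lactation and was not called. Slc38a5, named here after its values were seen, rose by 0.74. The 10 amino acid genes not called at lactation had changes of -0.53 to 0.64.

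**Figure D2:**
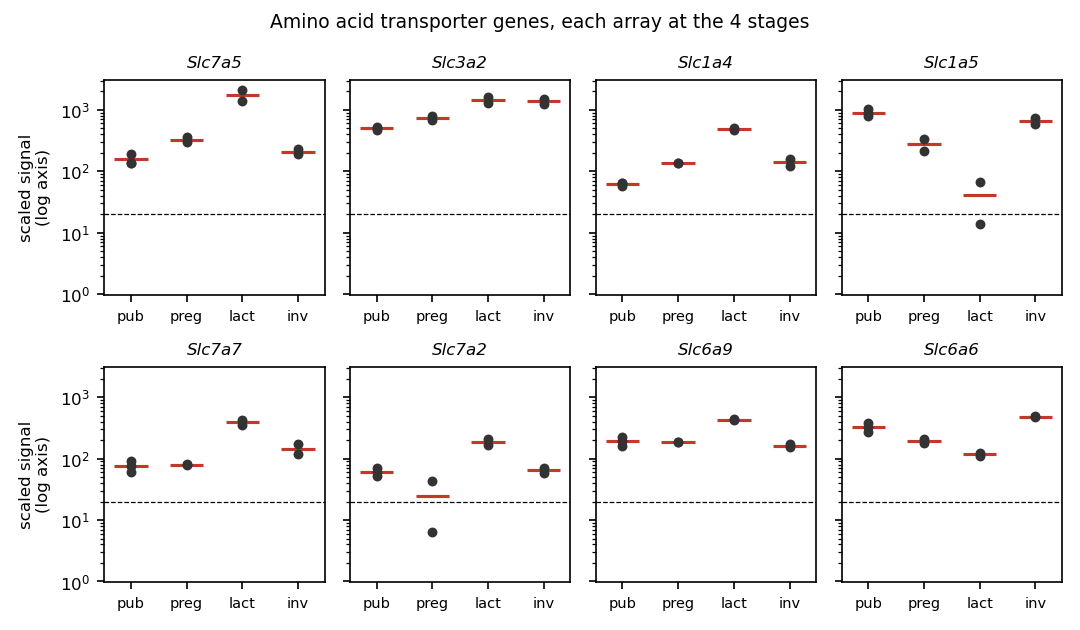
Scaled signal (y axis, log scale, array intensity units) of 8 amino acid transporter genes on each array at puberty (pub), pregnancy (preg), lactation (lact) and involution (inv), with points for arrays, red bars for stage means and a dashed line at the floor of 20. The lactation points of Slc7a5 (2120 and 1415) and Slc1a4 (478 and 501) lie above all others and those of Slc1a5 (14.1 and 68.2) below all others.

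Of the 27 tested ion transporter genes 14 (51.9%) rose at lactation and 4 (14.8%) fell, where 27.5% of all tested probe sets rose and 24.3% fell. Of the 11 tested zinc carrier genes of the SLC30 and SLC39 families 8 rose, none fell and 3 were not called. SLC30 proteins (ZnT) move zinc out of the cytosol, into vesicles or out of the cell, and SLC39 proteins (ZIP) move zinc into the cytosol. Slc30a4, which encodes ZnT4, the zinc transporter mutated in the lethal milk mouse, had 102, 103 and 95.1 at puberty, 296 and 268 at pregnancy, 1030 and 568 at lactation and 154 and 61.4 at involution. Slc39a6, which encodes ZIP6 (LIV-1), had 36.4, 33.6 and 31.2 at puberty, 40.4 and 73.5 at pregnancy, 222 and 390 at lactation and 42.6 and 85.1 at involution. The lactation arrays of both were above all other arrays, though the arrays of one stage lay far apart, as at involution. The changes were 2.45 ± 0.33 (adjusted p = 0.000362) for Slc30a4 and 2.62 ± 0.34 (adjusted p = 0.000331) for Slc39a6.

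Smaller rises were those of Slc30a1 (ZnT1, the zinc exporter of the cell surface), at least 1.24-fold over stages at the floor (adjusted p = 0.0312), and of Slc39a1 (ZIP1), 0.29 ± 0.10 (adjusted p = 0.0362). The adjusted p of Slc30a1 takes no account of the spread at the floored stages. Neither rise held without any 1 of the puberty arrays, nor Slc39a1 without lactation replicate 1, at changes of 0.30 for Slc30a1 and 0.26 to 0.30 for Slc39a1 (adjusted p = 0.0541 to 0.0621). On the deposited scale their changes were 0.24 and 0.21 and after quantile normalization 0.21 and 0.23, and neither was called. The signals of Slc30a5 (ZnT5, a Golgi zinc transporter) were 49, 48.7 and 48.2 at puberty, 45.6 and 51 at pregnancy, 108 and 83.8 at lactation and 59.4 and 52.9 at involution, with a rise of 0.90 ± 0.18 (adjusted p = 0.00345). Its dimmer probe set was called the other way, with a change of -0.58 and signals of 28.7 and 18.4 at lactation, so the direction of Slc30a5 depended on the probe set. Of the 8 dimmer probe sets of SLC genes that were called at lactation beside the brightest, this was the only one to oppose it. Slc30a9, Slc39a4 and Slc39a7, given here after their values were seen, rose by 0.79, 0.71 and 0.94. The dimmer probe set of Slc39a4 was not called at lactation (-0.37), and between pregnancy and lactation it was called down (-1.11) where the brightest was called up (0.74).

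Rises were also called for single carriers of magnesium, copper, phosphate and sulfate. Slc41a1, a magnesium transporter gene, was at 63.4, 80.5 and 84.3 at puberty, 179 and 232 at pregnancy, 567 and 333 at lactation and 117 and 145 at involution. Slc31a1, which encodes the copper importer CTR1, was at 164, 150 and 169 at puberty, 169 and 197 at pregnancy, 634 and 479 at lactation and 152 and 135 at involution. Lactation arrays were highest for both, with changes of 1.78 ± 0.23 (adjusted p = 0.000288) and 1.77 ± 0.15 (adjusted p = 3.01e-05), and the dimmer probe set of Slc31a1 also rose, by 0.86. Slc20a1, for the sodium phosphate cotransporter PiT1, had 184 and 176 at lactation, against 88.2 to 163 elsewhere, and rose by 0.58 ± 0.17 (adjusted p = 0.0189). That call did not hold without either lactation array (0.56 and 0.61, adjusted p = 0.0982 and 0.0717). The other tested phosphate carrier gene, Slc34a1, was not called (0.35, adjusted p = 0.108). Slc26a2, a sulfate transporter gene picked after its values were seen, was at 48.8 and 62.1 at lactation and 6.0 to 18.6 on all other arrays. With these others held at the floor, it was at least 2.75-fold higher at lactation (adjusted p = 4.34e-05, which takes no account of their spread). The sodium bicarbonate cotransporter gene Slc4a4 had signals of 2.5 to 31.0 and no call at lactation (-0.10 ± 0.17).

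Of the 4 tested genes of the SLC12 family of cation chloride cotransporters none rose and 2 fell, a number too small to set against the shares over all probe sets (27.5% and 24.3%). Slc12a4 and Slc12a7 encode the potassium chloride cotransporters KCC1 and KCC4. Slc12a4 measured 161, 121 and 147 at puberty, 126 and 87.9 at pregnancy, 25.6 and 21.8 at lactation and 115 and 79.7 at involution, and Slc12a7 measured 189, 203 and 212, 116 and 134, 38.5 and 44.2, and 169 and 216. Their lactation arrays were lowest without overlap, with changes of -2.25 (SE 0.228, adjusted p = 8.69e-05) and -2.03 (SE 0.157, adjusted p = 2.33e-05). With a floor of 50 the change of Slc12a4 was -1.17. Slc12a2, which encodes the sodium potassium chloride cotransporter NKCC1 of the basolateral membrane, followed another course, at 1118, 1434 and 1154 at puberty, 442 and 500 at pregnancy, 421 and 499 at lactation and 264 and 257 at involution. It was highest at puberty, where it rose by 1.68 ± 0.12 (adjusted p = 6.96e-05), lowest at involution, where it fell by 1.30 (SE 0.131, adjusted p = 0.000625), and alike in range at pregnancy and lactation (lactation change -0.21 ± 0.13, adjusted p = 0.197).

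Slc11a1 encodes NRAMP1, a divalent metal transporter of macrophage phagosomes. It had 116, 122 and 98.4 at puberty, 92.4 and 102 at pregnancy, 46.7 and 20.6 at lactation and 201 and 243 at involution. Lactation arrays were the lowest and involution arrays the highest, with a change of -2.11 (SE 0.284, adjusted p = 0.000378) at lactation and 1.67 ± 0.28 (adjusted p = 0.0057) at involution, which did not hold without involution replicate 2 (1.53, adjusted p = 0.0736). Macrophage markers (8 of 8 measured) summed to 3502 to 4135 at puberty, 3842 to 3863 at pregnancy, 2178 to 3075 at lactation and 8279 to 9660 at involution, and their part in the change of Slc11a1 was not tested. Slc8a1, which encodes a sodium calcium exchanger, had 24.9 and 11.4 at lactation and 58.5 and 57.9 at involution, against 20.1 to 38.1 at the earlier stages. It rose by 1.18 ± 0.17 at involution (adjusted p = 0.00273). It was called down alike at lactation (-0.66, SE 0.169, adjusted p = 0.0106) and at pregnancy (-0.66, adjusted p = 0.0408). The arrays of these 2 stages overlapped, and their direct comparison gave no change (-0.00). With signals this near the floor the lactation change was -1.06 with no floor and -0.07 with a floor of 50. The 9 ion transporter genes not called at lactation had changes of -0.70 to 0.35.

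**Figure D3:**
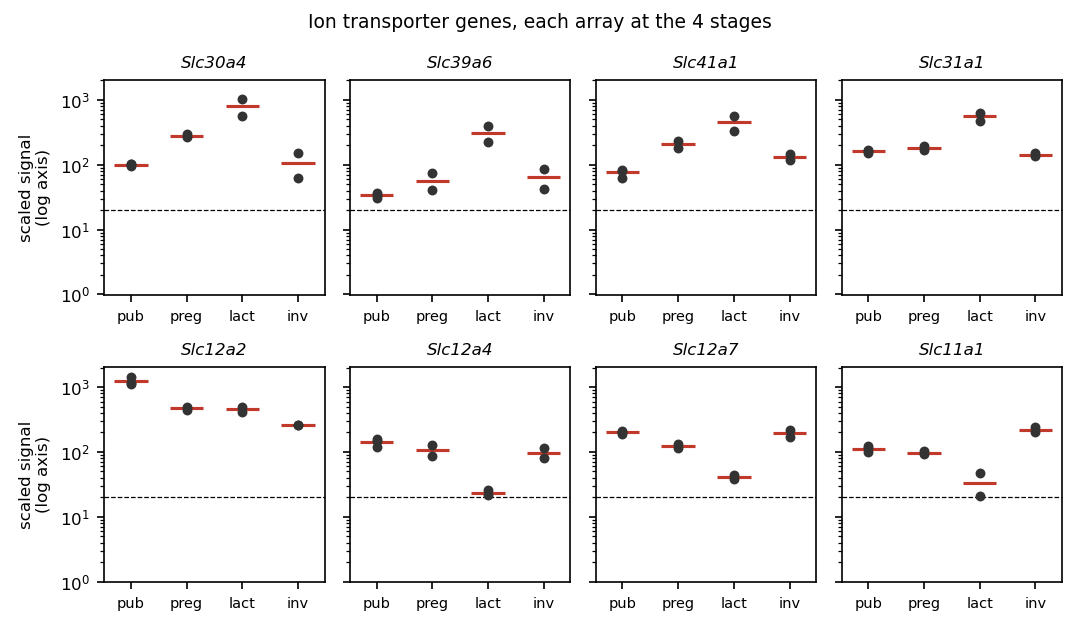
Scaled signal (y axis, log scale, array intensity units) of 8 ion transporter genes on each array at puberty (pub), pregnancy (preg), lactation (lact) and involution (inv), with points for arrays, red bars for stage means and a dashed line at the floor of 20. The zinc, magnesium and copper carrier genes of the top row are highest at lactation, Slc12a4, Slc12a7 and Slc11a1 are lowest there, and Slc12a2 is highest at puberty (1118 to 1434).

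Of the 9 tested SLC35 genes 8 (88.9%) rose at lactation and none fell, beside 27.5% and 24.3% of all tested probe sets, and the median change was 1.27. The largest rise was that of Slc35b1, which encodes a carrier of the endoplasmic reticulum membrane that exchanges ATP for ADP. Slc35b1 measured 414, 365 and 381 at puberty, 417 and 352 at pregnancy, 1879 and 1585 at lactation and 437 and 380 at involution. Pregnancy and involution arrays lay within or close to the puberty range and only the lactation arrays of this gene stood apart, with a change of 2.14 ± 0.12 (adjusted p = 5.54e-06). This is the gene with the STAT5 motif in the sequence above.

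Slc35b2 encodes the carrier of PAPS, the sulfate donor of the Golgi, and read 170, 171 and 188 at puberty, 309 and 355 at pregnancy, 834 and 720 at lactation and 259 and 325 at involution. Slc35c2 is related to the GDP-fucose transporter gene and read 128, 121 and 113 at puberty, 163 and 145 at pregnancy, 380 and 354 at lactation and 105 and 142 at involution. Slc35e1, whose substrate is not known, read 73.4, 65.0 and 46.3 at puberty, 46.5 and 48.4 at pregnancy, 182 and 172 at lactation and 55.3 and 34.0 at involution. In all of these the lactation arrays were the highest, and the changes were 1.59 ± 0.13 (adjusted p = 3.06e-05), 1.48 ± 0.15 (adjusted p = 8.87e-05) and 1.83 ± 0.25 (adjusted p = 0.00041). Slc35b2 differed from Slc35b1 in that its pregnancy arrays were above its puberty arrays.

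Slc35a2, the Golgi transporter of UDP-galactose, which is the galactose donor for lactose, had 33.1, 35.5 and 37.9 at puberty, 31.4 and 42.2 at pregnancy, 88.5 and 79.1 at lactation and 36.8 and 28 at involution. Its lactation arrays were again the highest and it rose by 1.27 ± 0.20 (adjusted p = 0.000841), or by 0.74 with a floor of 50. Slc35a1, the CMP-sialic acid transporter, had 127 and 131 at lactation and 56.1 to 99.8 elsewhere. It rose by 0.60 ± 0.18 (adjusted p = 0.0204), which did not hold without either lactation array (0.62 and 0.59, adjusted p = 0.0674 and 0.074). Slc35d1 and Slc35e4 rose by 0.81 and 0.91. Slc35g3 had overlapping stages (29.7 to 69.5 over all arrays, change 0.00 ± 0.35), and Slc35a4, at 1.0 to 16.9, was not tested. Slc35d1, Slc35e4, Slc35g3 and Slc35a4 were named after their values were seen, to complete the class.

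In the SLC25 family 6 of the 17 tested genes (35.3%) rose at lactation and 7 (41.2%) fell, beside 27.5% and 24.3% of all tested probe sets. Leaving out single arrays changed both counts. Without lactation replicate 1 there were 3 rises and 3 falls, and without lactation replicate 2 there were 2 rises. Slc25a1 encodes the citrate carrier, which exports citrate to the cytosol as the carbon source of fatty acid synthesis. It was at 1317, 1165 and 1309 at puberty, 771 and 487 at pregnancy, 2665 and 3621 at lactation and 508 and 801 at involution. Lactation arrays were above and pregnancy and involution arrays below all puberty arrays, and the lactation change was 1.98 ± 0.22 (adjusted p = 0.000149). A second probe set of Slc25a1 rose by 1.64. Slc25a17, which encodes a carrier of the peroxisome membrane and not of mitochondria, was at 341, 377 and 320 at puberty, 369 and 333 at pregnancy, 1008 and 772 at lactation and 401 and 312 at involution. Its lactation arrays were the highest, and it rose by 1.33 ± 0.15 (adjusted p = 0.00013).

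Other SLC25 rises were smaller and less secure. Slc25a45 rose by 1.12 ± 0.31 (adjusted p = 0.0155), with 94.4 and 65.2 at lactation against 16.7 to 45.1 elsewhere, and Slc25a15, the ornithine carrier gene, by 0.64 ± 0.22 (adjusted p = 0.0344), with 109 and 105 against 48.1 to 87.4. Without 1 lactation array the change of Slc25a45 was 0.85 or 1.39 (adjusted p = 0.183 and 0.0556), and with a floor of 50 it was 0.65. The Slc25a15 call did not hold without any 1 of 7 arrays (puberty 1 or 3, either pregnancy, either lactation or involution 2), at 0.56 to 0.67 (adjusted p = 0.0501 to 0.144), nor on the deposited scale (0.55). Slc25a39, named after its values were seen, rose by 0.47.

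The adenine nucleotide translocators, which exchange ATP and ADP across the inner mitochondrial membrane, diverged. Slc25a4 encodes ANT1, the isoform of heart and skeletal muscle, and had 1343, 1121 and 1730 at puberty, 1103 and 913 at pregnancy, 207 and 357 at lactation and 859 and 871 at involution. Slc25a5 encodes ANT2 and had 262, 375 and 303 at puberty, 404 and 377 at pregnancy, 481 and 521 at lactation and 374 and 203 at involution. Lactation arrays were the lowest for Slc25a4 and the highest for Slc25a5. Slc25a4 fell by 1.96 on the log2 scale (SE 0.220, adjusted p = 0.000144). Slc25a5 was called up by 0.64 ± 0.22 (adjusted p = 0.0388), which did not hold without puberty replicate 1 or 3 or without any 1 of the pregnancy or lactation arrays (0.58 to 0.70, adjusted p = 0.0585 to 0.237) or on the deposited scale (0.55), while its dimmer probe sets rose by 2.16 and 0.91. Skeletal muscle markers (11 of 11 measured, Myh2 not above 20) summed to 11979 to 29728 at puberty, 254 to 1507 at pregnancy, 254 to 300 at lactation and 490 to 744 at involution. Beside these sums, the arrays of Slc25a4 ranged from 1121 to 1730 at puberty, 913 to 1103 at pregnancy, 207 to 357 at lactation and 859 to 871 at involution. White adipocyte markers (8 of 10 measured) summed to 10463 to 14044, 6277 to 9198, 2113 to 2532 and 11425 to 13454 at the same stages. The part of muscle, of fat cells or of any other cell type in the values of Slc25a4 was not tested.

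Slc25a25, which encodes a carrier of ATP-magnesium and phosphate, had 288, 253 and 274 at puberty, 164 and 131 at pregnancy, 34.1 and 113 at lactation and 161 and 105 at involution. Its lactation and involution arrays overlapped, and its fall of 1.48 at lactation (SE 0.382, adjusted p = 0.011) was -0.62 without lactation replicate 1 (adjusted p = 0.11) and -2.34 without lactation replicate 2. It was called up at puberty by 1.36 (adjusted p = 0.0195), which did not hold without any 1 of the puberty or pregnancy arrays or without involution replicate 2 (1.26 to 1.41, adjusted p = 0.0525 to 0.0738). Slc25a53 was at 63.2, 50.7 and 56.6 at puberty, 18.2 and 15.4 at pregnancy, 16.3 and 10.1 at lactation and 30.3 and 25.5 at involution. Pregnancy and lactation of Slc25a53 were both at the floor, and the lactation change of -0.66 (adjusted p = 0.00624) was -0.06 with a floor of 50 and -1.21 with none. Slc25a28, which encodes the iron importer mitoferrin 2, had 110 and 118 at lactation against 151 to 236 elsewhere and a change of -0.63 (adjusted p = 0.0103), or -0.58 without lactation replicate 1 (adjusted p = 0.0739). Slc25a36, a pyrimidine nucleotide carrier gene, had 212 and 207 at lactation, 336 and 337 at involution and 249 to 305 before. It fell by 0.50 at lactation (adjusted p = 0.00361) and rose by 0.41 at involution (adjusted p = 0.0273), the latter not without puberty replicate 1 or 2 or either involution array (0.40 and 0.41, adjusted p = 0.0512 to 0.0819) or with quantile normalization (0.29). Slc25a10, the dicarboxylate carrier gene, was not called at lactation (0.42 ± 0.20, adjusted p = 0.106), though it was without puberty replicate 3 (0.48).

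**Figure D4:**
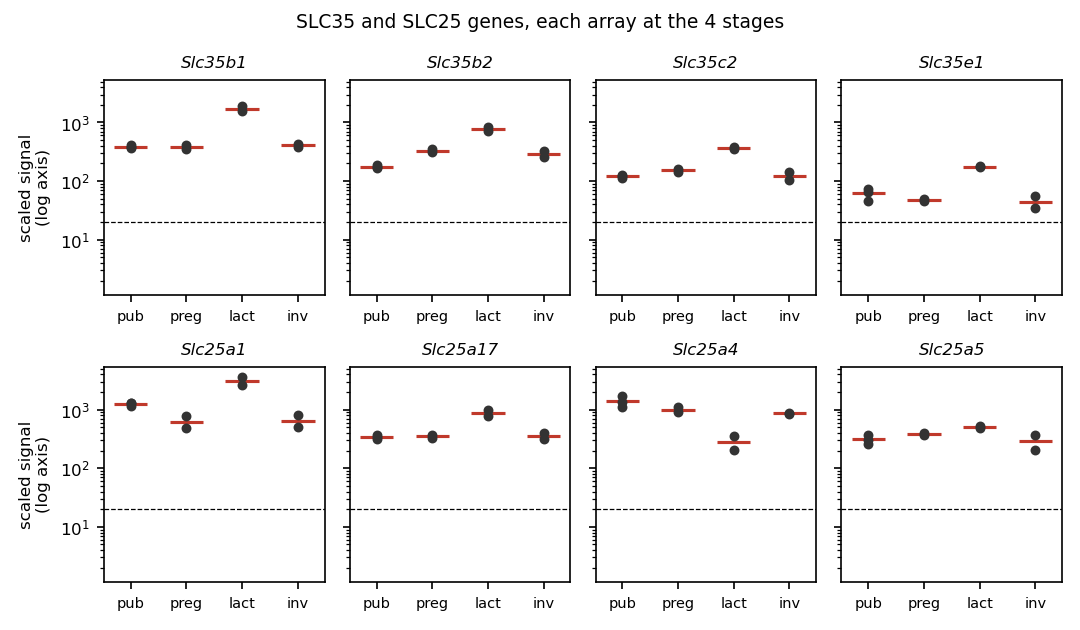
Scaled signal (y axis, log scale, array intensity units) of 4 SLC35 genes (top) and 4 SLC25 genes (bottom) on each array at puberty (pub), pregnancy (preg), lactation (lact) and involution (inv), with points for arrays, red bars for stage means and a dashed line at the floor of 20. The SLC35 genes are highest at lactation, as are Slc25a1 (2665 and 3621) and Slc25a17, while Slc25a4 is lowest there (207 and 357).

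Of the 43 tested genes for other substrates 20 (46.5%) rose at lactation, 3 (6.98%) fell and 20 were not called, beside rises in 27.5% and falls in 24.3% of all tested probe sets. The fatty acid transport proteins, acyl-CoA synthetases that trap fatty acids in the cell, are encoded by SLC27 genes, and their members took different courses. Slc27a1 was at 602, 1085 and 1043 at puberty, 468 and 334 at pregnancy, 195 and 109 at lactation and 370 and 291 at involution. Slc27a3 was at 207 and 143 at lactation and 7.3 to 18.8 on the other arrays. These were all held at the floor, so that Slc27a3 was tested through lactation alone. Its spread outside lactation was not measured, and its adjusted p takes no account of it. Slc27a4 was at 56.9, 43.9 and 28.1 at puberty, 59.5 and 54.4 at pregnancy, 169 and 129 at lactation and 55.1 and 94.9 at involution. The lactation arrays were lowest for Slc27a1 and highest for the other two. Slc27a1 fell by 1.73 at lactation (SE 0.287, adjusted p = 0.00115) and rose by 1.72 ± 0.25 at puberty (adjusted p = 0.00183), Slc27a3 was at least 8.62-fold higher at lactation (adjusted p = 4.34e-06), and Slc27a4 rose by 1.42 ± 0.31 (adjusted p = 0.00484). The Slc27a4 call did not hold without lactation replicate 1 (1.22, adjusted p = 0.0872).

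Among 8 tested genes for sugars and polyols 5 rose (Slc50a1, Slc5a1, Slc2a3, Slc2a8 and Slc5a11) and 1 fell (Slc2a4). This group is too small to set against the shares over all probe sets (27.5% and 24.3%). Slc50a1 encodes SWEET1, a sugar carrier found in the Golgi, and was at 275, 255 and 263 at puberty, 212 and 197 at pregnancy, 1063 and 1031 at lactation and 209 and 200 at involution. Arrays of one stage lay close together, lactation was far above the rest, and the change of 2.23 ± 0.10 had an adjusted p of 2.08e-06. Slc5a1, the sodium glucose cotransporter SGLT1, had 7.8, 2.7 and 2.3 at puberty, 40.0 and 40.5 at pregnancy, 103 and 109 at lactation and 13.8 and 38.5 at involution. The lactation arrays were the highest and all puberty arrays were below the floor. With these held at the floor the change at lactation was 1.91 ± 0.24 (adjusted p = 0.000236), and with a floor of 50 it was 1.08. Slc2a3, the glucose transporter GLUT3, had 108 and 115 at lactation against 34.9 to 81.4 elsewhere and rose by 1.22 ± 0.27 (adjusted p = 0.00517). That call did not hold without either lactation array (1.26 and 1.17, adjusted p = 0.0519 and 0.0602), and the dimmer probe set of Slc2a3 changed by 0.07 and was not called.

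Slc2a4 encodes GLUT4, the insulin-responsive glucose transporter of fat and muscle. It was at 260, 320 and 428 at puberty, 165 and 149 at pregnancy, 172 and 139 at lactation and 361 and 329 at involution. Pregnancy and lactation arrays overlapped and lay below all puberty and involution arrays, and Slc2a4 fell by 0.73 at pregnancy and by 0.75 at lactation (adjusted p = 0.0398 and 0.00891) and rose by 0.70 at puberty and 0.78 at involution (adjusted p = 0.0157 and 0.0221). The lactation call did not hold without lactation replicate 2 (-0.60, adjusted p = 0.117), nor the involution call without either pregnancy or involution array or lactation replicate 2 (0.72 to 0.85, adjusted p = 0.0525 to 0.142). White adipocyte markers (8 of 10 measured, Slc2a4 itself among those listed) summed to 10463 to 14044 at puberty, 6277 to 9198 at pregnancy, 2113 to 2532 at lactation and 11425 to 13454 at involution, and all 8 fell at lactation. Their part in the values of Slc2a4 and Slc27a1 was not tested.

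Among vitamin carriers Slc5a6, the sodium-dependent transporter of biotin and pantothenate, was at 142, 170 and 227 at puberty, 88.4 and 77.6 at pregnancy, 441 and 550 at lactation and 115 and 158 at involution. It was lowest at pregnancy and highest at lactation, without overlap, with a rise of 1.97 ± 0.21 (adjusted p = 0.000101). Slc44a1, a choline transporter gene, had 140, 89.4 and 99.6 at puberty, 246 and 235 at pregnancy, 130 and 54.1 at lactation and 145 and 245 at involution. Its lactation arrays overlapped those of puberty, and the change of -1.02 (adjusted p = 0.0328) rested on lactation replicate 2, being -0.38 without it (adjusted p = 0.415) and -1.65 without lactation replicate 1. It was also not called without either pregnancy array or involution replicate 2 (-1.03 to -0.89). Slc19a1, the reduced folate carrier, was at 58.8 to 96.5 over all arrays and not called at lactation (-0.03 ± 0.25), while its dimmer probe set fell by 1.28.

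Slc15a2 encodes PEPT2, a carrier of small peptides, and had 10.9, 14.5 and 18.5 at puberty, 96.6 and 98.6 at pregnancy, 182 and 143 at lactation and 50.7 and 44.6 at involution. No stage overlapped another. With the puberty arrays held at the floor it rose by 1.83 ± 0.18 at lactation (adjusted p = 7.55e-05), fell by 2.18 at puberty (adjusted p = 7.80e-05) and was called up at pregnancy by 0.87 (adjusted p = 0.0194), the last not without either pregnancy array (0.88 and 0.85, adjusted p = 0.115 and 0.121) and at 0.40 with a floor of 50. Slc6a2, the noradrenaline transporter, had 209 and 164 at lactation and 17.5 to 37.7 on all other arrays. Its lactation arrays stood apart, and with the pregnancy arrays held at the floor it rose by 3.0 ± 0.26 (adjusted p = 3.65e-05), or by 1.89 with a floor of 50. Its dimmer probe set had 30 and 21.1 at lactation, a change of 0.33, and was not called. Slc16a1, the lactate carrier MCT1, was at 36 and 24.5 at lactation and 5.4 to 25.9 elsewhere, overlapping puberty. It was tested through its lactation mean alone. With puberty replicates 2 and 3, pregnancy replicate 1 and the involution arrays held at the floor, it was called up by 0.51 ± 0.17 (adjusted p = 0.0357). It was not called without puberty replicate 2 or 3 or any 1 of the pregnancy or involution arrays (0.48 to 0.52), without lactation replicate 1 (0.23, adjusted p = 0.287), on the deposited scale (0.42) or with a floor of 50 (0.00). Slc22a5 (carnitine, 0.48 ± 0.20), Slc29a1 (nucleosides, 0.19 ± 0.14) and Slc6a8 (creatine, -0.77 ± 0.40) were not called at lactation. Slc22a5 was called without lactation replicate 1 (0.69) or involution replicate 2 (0.54), and Slc6a8 changed by 0.08 without lactation replicate 1 and by -1.62, then called, without lactation replicate 2.

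**Figure D5:**
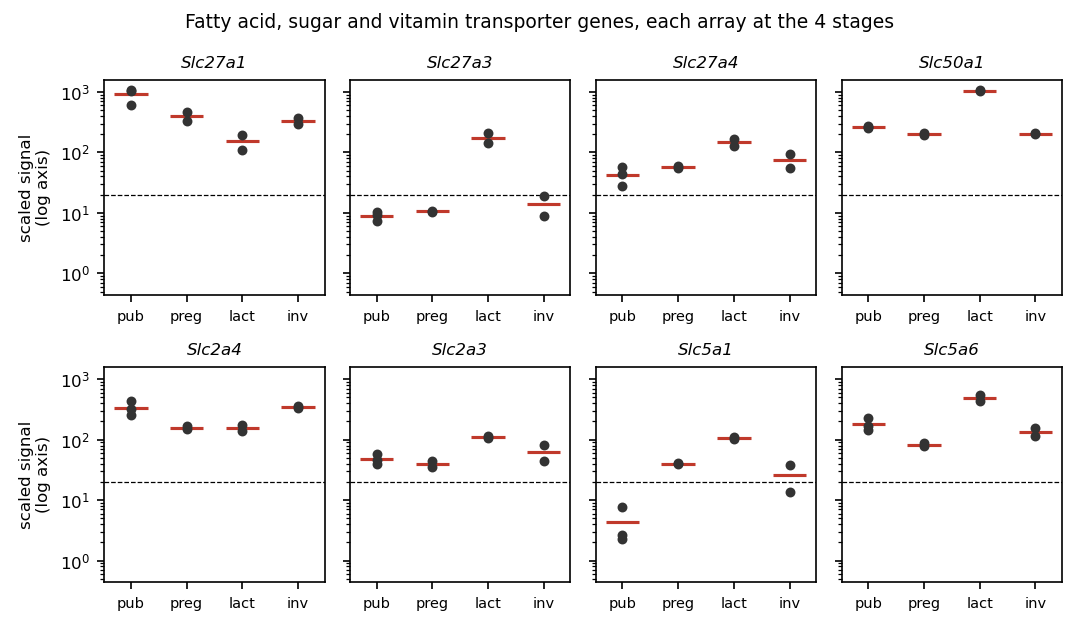
Scaled signal (y axis, log scale, array intensity units) of 3 SLC27 fatty acid genes, 4 sugar carrier genes and the vitamin carrier gene Slc5a6 on each array at puberty (pub), pregnancy (preg), lactation (lact) and involution (inv), with points for arrays, red bars for stage means and a dashed line at the floor of 20. Slc27a1 declines from puberty (602 to 1085) to lactation (195 and 109), Slc27a3 is above the floor only at lactation, and Slc2a4 is lower at pregnancy and lactation than at puberty and involution.

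Outside the transporters, Slc9a3r1, chosen after its values were seen, encodes the scaffold protein NHERF1 of the apical membrane. It was at 341, 348 and 321 at puberty, 864 and 762 at pregnancy, 1373 and 1647 at lactation and 466 and 526 at involution, each stage apart from the others, and rose by 1.55 ± 0.12 at lactation (adjusted p = 1.93e-05). Slc9a3r2 and Slc4a1ap were not called.

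Of 39 solute carriers known in the lactating gland or milk synthesis, listed with earlier results of these data known, 32 were among the 145 genes and 31 were tested. At lactation 19 of the 31 rose, 5 fell (Slc1a5, Slc6a6, Slc25a4, Slc27a1 and Slc2a4) and 7 were not called. Of all tested probe sets 27.5% rose and 24.3% fell, but a list made with these data known cannot be tested against those shares.

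At the other stages fewer SLC genes were called. Each of these stages was set against a mean that includes lactation. A gene high at lactation alone can thus be called down at the others, and a gene low there called up. Slc27a3, for example, was called down at puberty, pregnancy and involution (-1.04 each) with all arrays of these stages below the floor. At puberty 13 (10.9%) rose and 29 (24.4%) fell, where 11.2% and 13.2% of all tested probe sets did. Slc1a5, Slc27a1 and Slc12a2 had the largest rises, and Slc15a2, Slc1a4 and Slc7a5 the largest falls (-2.18, -1.76 and -1.67). The rises numbered 8 without puberty replicate 2 and 7 without puberty replicate 3. At pregnancy 2 genes (1.68%), Slc1a2 and Slc15a2, rose and 14 (11.8%) fell, where 6.48% and 5.20% of all did. Slc7a2, Slc5a6 and Slc6a2 had the largest falls (-1.61, -1.45 and -1.28). Here the counts turned on single arrays, with 2 falls without either pregnancy array, 9 without puberty replicate 2 and 22 without lactation replicate 2, and with 1 rise without pregnancy replicate 1, any puberty array or any involution array and 0 without pregnancy replicate 2.

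At involution 8 SLC genes (6.72%) rose and 17 (14.3%) fell, where 10.4% and 7.27% of all tested probe sets did. The 8 were Slc1a5, Slc11a1, Slc6a6, Slc8a1, Slc12a7, Slc2a4, Slc3a2 and Slc25a36, with rises of 0.41 to 1.68, and Slc30a4, Slc12a2 and Slc7a5 had the largest falls (-1.52, -1.30 and -1.10). The rises numbered 2 without involution replicate 2, and the falls 10 and 11 without either involution array and 11 without pregnancy replicate 1. In the direct comparison of lactation with pregnancy 45 genes (37.8%) rose and 9 (7.56%) fell, where 21.6% and 19.7% of all did. Slc6a2 (3.21), Slc27a3 (3.11) and Slc7a2 (2.65) had the largest changes upward and Slc1a5 (-2.86), Slc12a4 (-2.16) and Slc25a4 (-1.88) downward. These comparisons share arrays, so their calls are not independent of each other.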

How the data were processed

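The authors hybridised cRNA of whole mammary glands to 9 MG-U74Av2 arrays, and the deposited intensity values are their processed signals, which the submitters' processing notes credit to MAS5. The mean of the values, trimmed by 2% at each end, was 125.1 on every array. Of 12488 probe sets 66 controls were left out. A platform annotation of 2016 gave 10833 probe sets 1 symbol, 396 several and 1193 none, and 10817 matched RefSeq (GRCm38.p6). SLC genes took 178 probe sets. Arrays were scaled to equal medians (factors 0.948 to 1.06), floored at 20, log2 transformed and tested where the mean exceeded 20 in at least 1 stage. Limma 3.58.1 (R 4.3.3; lmFit, eBayes with trend) gave the F test, each stage against the mean of the others, and lactation against pregnancy, with Benjamini-Hochberg adjustment over 9783 probe sets.

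Named were, in each class, up to 4 genes with the largest rise and 4 with the largest fall at lactation, the largest rise at each other stage, genes with opposed probe sets, and the genes listed as known in milk synthesis. The SLC genes, classes and lists were chosen with earlier results of these data known. In simulated arrays of 9783 probe sets, 100 were changed by 1 (log2) and 100 by 2, with no floor. The lactation contrast recovered 49% of the changes of 1 and 96% of the changes of 2. The data have a floor and a larger share of calls, so these rates need not hold there. The number of arrays, 2 or 3 to a stage, limits the precision. Alternatives varied the scaling, floor, filter, model, probe set, replicate block and arrays.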

Additional observations from a re-analysis of the deposited data

How the results depend on the processing

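Of 228 counts recomputed under other settings, single left-out arrays aside, 213 stayed within 1.5 times the reported count. The labels do not say whether equal replicate numbers pair arrays across stages. Deviations from stage means of same-numbered arrays correlated at -0.153 to 0.049 over 12 pairs. In a stage of 2 arrays the deviations are equal and opposite, so some pairs repeat each other. These correlations therefore cannot exclude a pairing. The main fit had no block for the replicate number. With the number as a block, 7 SLC genes rose (13 without the block) and 17 fell (29) at puberty, 0 rose (2) and 7 fell (14) at pregnancy, and 3 mitochondrial carriers rose at lactation (6). One gene rose at pregnancy with scaling to the 75th percentile, no floor, a floor of 50, no filter, a filter of 100, no trend, robust fitting or plain analysis of variance, counting 1 each time, and 9 fell there under plain analysis of variance. With the dimmest probe set 1 amino acid gene fell at lactation (2).

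Leaving out single arrays gave these ranges: rises at puberty 7 to 13, at pregnancy 0 to 3 and at involution 2 to 9, falls at pregnancy 2 to 22 and at involution 10 to 24, and mitochondrial carriers up 2 to 6 and down 3 to 7 at lactation. For lactation overall 44 to 56 genes rose and 12 to 18 fell, and 59 to 68 passed the F test. Of 57 called single-gene changes none reversed and 22 lost the call under at least 1 setting. Uncalled changes turned sign for Slc19a1 (0.01 with the replicate block, 0.01 without puberty replicate 3, 0.02 without pregnancy replicate 1, 0.31 without lactation replicate 2, -0.37 without lactation replicate 1), Slc4a4 (0.03 with no floor) and Slc6a8 (0.08 without lactation replicate 1, -1.62 without lactation replicate 2). The family's median lactation change of 0.42 was 0.36 to 0.45 across scalings, 0.14 with a floor of 50, 0.58 with no floor and 0.66 with a filter of 100. Signals near the floor of 20 limit the smallest values. With a floor of 50 the lactation changes of Slc27a3, Slc5a1 and Slc6a2 were 1.79, 1.08 and 1.89.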
